A study of Mus musculus with 31 samples.

Results

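The cathepsin and legumain genes of the mouse kidney were followed here as a family of 10 lysosomal proteases, comprising the cathepsins Ctsa, Ctsb, Ctsc, Ctsd, Ctsh, Ctsk, Ctsl, Ctss and Ctsz and the legumain gene Lgmn. They were taken by gene symbol from the 23509 genes counted in every kidney. All 10 passed the filter on low counts, which left 15185 genes for testing. Bulk RNA-seq had been performed on whole kidneys of 31 mice in 3 groups. Of the Pcy/CD1 mice, which are CD1 mice with the inherited pcy allele and a slowly progressing cystic kidney disease, 12 received PBS and 14 received RGLS4326, both subcutaneously. RGLS4326 is a short chemically modified oligonucleotide that binds the microRNA miR-17, and it was given at 25 mg kg−1 monthly from 5 weeks of age for 25 weeks. The design text describes the same monthly schedule for PBS, whereas the sample labels give PBS weekly. The 5 wild-type CD1 mice were males that received no injection, and all kidneys were taken at 30 weeks of age. The pcy allele and the injections therefore cannot be told apart in comparisons with wild type. No wild-type mouse received RGLS4326. The study describes the Pcy/CD1 mice as males as well.

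Cathepsins are proteases of the endosome and lysosome that are made as inactive precursors and become active in the acidic compartment. Most are cysteine proteases (Ctsb, Ctsc, Ctsh, Ctsk, Ctsl, Ctss and Ctsz), whereas Ctsd is an aspartic protease and Ctsa a serine carboxypeptidase. Legumain is a separate cysteine protease that cleaves after asparagine and processes several cathepsin precursors. In the kidney, proximal tubule cells carry many lysosomes and degrade filtered protein with these enzymes, and macrophages use some of them to process antigen.

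RGLS4326 pairs with the miR-17 seed, so the mature miRNA and the one seed match in a member are shown. The mature mmu-miR-17-5p, read from RefSeq (GRCm38.p6, chr14:115043684-115043706, plus strand), has its seed, bases 2 to 8, in capitals.
mmu-miR-17-5p: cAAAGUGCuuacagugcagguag
Its seed match GCACTTT was searched in the longest annotated 3′UTR of each gene (GENCODE vM21). Of 21024 genes with a 3′UTR, 11.8% held a match, and among the 10 members Ctsa alone held one. That match lies at chr2:164839424-164839430 on the plus strand, and it is in capitals in the 30 bases shown.
Ctsa 3′UTR: gaccaagtgaGCACTTTgttccggccatcg
In Ctsa, the treated and PBS-treated kidneys differed by a log2 fold change of 0.050 (95% interval −0.082 to 0.18), with an adjusted p of 0.590. A seed match is a description of the sequence and does not show that miR-17 binds there.

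The E-box CACGTG is the core of the motif bound by TFEB and its relatives, which drive many lysosomal genes. It was searched in RefSeq promoters, each 250 bases before to 50 bases after a start site (GRCm38.p6). The word reads the same on both strands. Promoters were given for 8 of the 10 members, and Ctsb and Ctsh were not matched. A CACGTG lay in a promoter of Ctsa, Ctsd, Ctsl and Lgmn, that is 4 of these 8 genes, whereas 8.09% of 27025 genes held one in any promoter. In Ctsa and Lgmn it lay in 1 of 2 promoters. No CACGTG lay in these windows of Ctsc, Ctsk, Ctss and Ctsz. The Ctsd promoter (chr7:142387778-142388077, minus strand) is shown with its 2 matches in capitals. The promoters of Ctss (chr3:95526536-95526835, plus strand) and Ctsk (chr3:95498960-95499259, plus strand) are shown because they belong to neighbouring genes with the widest differences between PBS and wild type, and neither holds a match.
Ctsd promoter: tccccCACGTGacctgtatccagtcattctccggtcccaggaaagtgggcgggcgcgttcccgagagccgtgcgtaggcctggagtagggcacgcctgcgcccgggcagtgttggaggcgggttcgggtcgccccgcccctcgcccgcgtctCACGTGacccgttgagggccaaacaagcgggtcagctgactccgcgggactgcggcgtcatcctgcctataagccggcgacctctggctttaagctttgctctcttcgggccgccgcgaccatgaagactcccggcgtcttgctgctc
Ctss promoter: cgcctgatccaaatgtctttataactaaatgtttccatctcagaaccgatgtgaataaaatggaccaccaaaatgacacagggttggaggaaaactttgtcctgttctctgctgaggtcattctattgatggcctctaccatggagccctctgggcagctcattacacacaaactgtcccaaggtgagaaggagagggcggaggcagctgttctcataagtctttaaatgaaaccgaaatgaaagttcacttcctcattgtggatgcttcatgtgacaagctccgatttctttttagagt
Ctsk promoter: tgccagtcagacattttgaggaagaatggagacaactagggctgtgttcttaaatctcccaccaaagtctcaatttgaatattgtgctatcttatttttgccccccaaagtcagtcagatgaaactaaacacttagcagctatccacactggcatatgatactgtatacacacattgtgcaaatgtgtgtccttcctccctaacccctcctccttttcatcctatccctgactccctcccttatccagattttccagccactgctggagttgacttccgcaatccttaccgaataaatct

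Between 14892524 and 27459962 reads fell on genes per kidney. Levels are given as CPM, counts per 1000000 gene counts after scaling with TMM factors, which assume that most genes do not differ. These factors were 0.818 to 0.854 in wild type, 1.004 to 1.165 with PBS and 0.890 to 1.08 with RGLS4326, so they moved with the groups. Scaled by total gene counts alone, the median log2 fold change of all genes between PBS and wild type was 0.38, against 0.010 with TMM. Differences below are thus relative to the typical gene. Deposited library numbers were split into 3 series within each group. Series of the same number were taken as one across groups, which was not checked. Each then held mice of all groups, and several results are also given within a series. RGLS4326-treated mouse 9 stood apart from its group, with a proximal tubule marker sum of 27812 CPM against a group median of 15047 CPM. Its tubular injury marker sum of 720 CPM lay within 333 to 861 CPM in wild type, against 2850 to 7159 CPM with PBS. The injury marker Lcn2 read 2.76 CPM in it, against 0.944 to 11.2 CPM in wild type and 205 to 1205 CPM with PBS. Its fibroblast marker sum of 264 CPM lay above the wild-type and below the PBS range. Mouse 9 was kept in all estimates unless stated, and several results are given with and without it. Proximal tubule markers were present in every kidney, with summed levels of 27422 to 31886 CPM in wild type, 8077 to 16171 CPM with PBS and 10872 to 27812 CPM with RGLS4326. Summed macrophage markers spanned 269 to 309 CPM in wild type, 626 to 1060 CPM with PBS and 278 to 1227 CPM with RGLS4326. In bulk kidney RNA, a change in the number of cells of a type and a change in RNA per cell cannot be told apart.

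Per kilobase of the principal transcript, taking the longest where several were annotated as principal, the 10 genes spanned a wide range within each group. In wild-type kidneys the highest was Lgmn at 464 ± 47.3 CPM per kb (SD, n = 5), followed by Ctsd at 354 ± 9.19 CPM per kb. Ctsh (187 ± 8.47 CPM per kb), Ctsb (137 ± 5.09), Ctsz (114 ± 4.38), Ctsa (80.4 ± 19.3) and Ctsl (61.5 ± 3.77) formed the middle of the order. Ctss (8.50 ± 2.09), Ctsc (6.14 ± 0.953) and Ctsk (1.29 ± 0.227) were the lowest. The neighbours Ctsa and Ctsl, and Ctss and Ctsc, lay within the summed SDs of each other, while the other neighbours did not. In PBS-treated kidneys Ctsd led at 463 ± 90.3 CPM per kb (SD, n = 12) with Lgmn next at 343 ± 42.5 CPM per kb. These lay within their summed SDs. With RGLS4326 the same pair led at 398 ± 43.9 and 379 ± 37.0 CPM per kb (SD, n = 14), again within them. Ctss reached 59.1 ± 12.7 CPM per kb with PBS and 53.1 ± 21.0 CPM per kb with RGLS4326. Its upper neighbour Ctsl read 71.2 ± 9.85 and 66.7 ± 7.52 CPM per kb, within the summed SDs in both groups. With RGLS4326 the Ctss mean lay below the lowest Ctsl value of 54.6 CPM per kb. The order depends on the length used, since Ctsh ranked 3 of 10 in wild type by its principal transcript and 5 by all its exons together. The Ctsl transcript used was the longest of the 10, at 6168 bases with a 3′UTR of 4761 bases. A shorter Ctsl transcript would raise its level per kb, so its rank and its distance from Ctss rest on this choice.

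**Figure D1:**
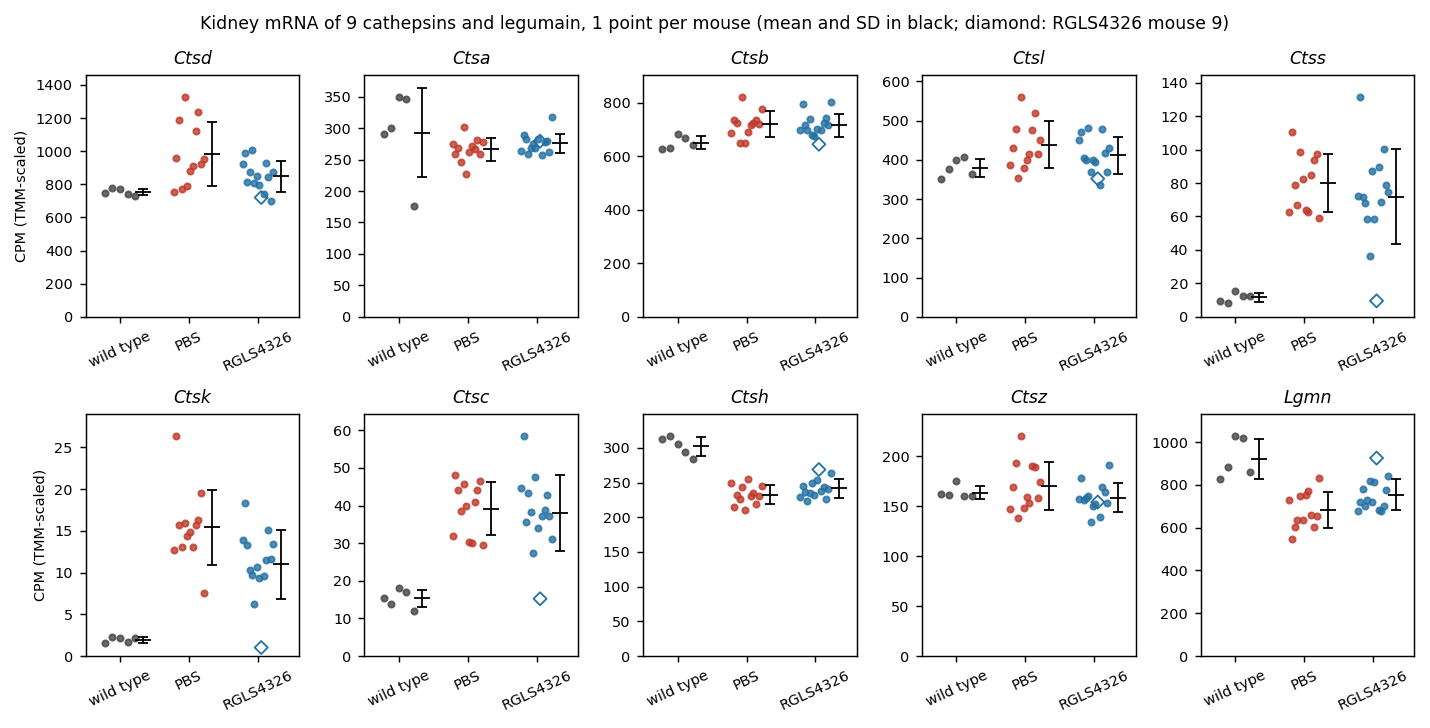
Level of each gene in CPM (vertical axis from 0, TMM-scaled) for every mouse of the wild-type, PBS and RGLS4326 groups, with the mean and SD in black. Ctss, Ctsk and Ctsc show no overlap between wild type and PBS, and the open diamond, RGLS4326-treated mouse 9, lies at 9.51, 1.02 and 15.2 CPM for these genes.

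The comparison of PBS-treated Pcy/CD1 with wild-type kidneys asks how the diseased kidney differs. The cysteine proteases Ctss, Ctsk and Ctsc rose clearly, by 6.96-fold, 7.87-fold and 2.56-fold. Ctsd, Ctsb and Ctsl rose by less, Ctsh and Lgmn fell, and Ctsa and Ctsz did not pass the test. In total 6 of the 10 members rose and 2 fell at an adjusted p under 0.05. Among all genes tested, 37.7% rose and 36.6% fell in this comparison, so passing it was common. With an absolute log2 fold change over 0.5 added, 3 members were called, all higher, whereas 42.4% of all genes were called in either direction and 24.6% as higher. The groups did not overlap for 4 members, Ctsc, Ctsh, Ctsk and Ctss, against 42.2% of all genes. The median log2 fold change was 0.18 over the members and 0.010 over all genes tested.

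Ctss, an endopeptidase that trims the invariant chain in antigen-presenting cells, lies on the plus strand of chromosome 3 (chr3:95526786-95556403, GRCm38). Wild-type mice 1 to 5 read 9.55, 8.02, 15.3, 12.2 and 12.5 CPM. With PBS the lowest, median and highest were 59.2, 80.6 and 111 CPM, so all 12 mice lay above all 5 wild-type mice. The log2 fold change was 2.80 (SE 0.34, adjusted p = 3.55e-08). In the first and the second library series it was 3.18 and 2.49 (adjusted p = 0.000842 and 0.000343), and the third held a single wild-type mouse.

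Ctsk, a collagen-degrading endopeptidase best known from osteoclasts, lies beside Ctss at chr3:95499256-95509362. It was the least expressed of the 10 genes in wild type, at 1.53, 2.26, 2.19, 1.63 and 2.17 CPM, which rest on 26 to 38 reads per mouse. PBS-treated kidneys read 7.52 CPM at the lowest, 15.3 CPM at the median and 26.4 CPM at the highest, again without overlap. This was a log2 fold change of 2.98 (SE 0.37, adjusted p = 4.89e-08). Of 3 osteoclast markers tested, 0 rose. Dcstamp, the fusion receptor of osteoclasts, stayed at or below 0.626 CPM in all mice, and Acp5 averaged 95.05 CPM with PBS against 116 CPM in wild type, a fall that did not pass with total gene counts.

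Ctsc, the dipeptidyl peptidase that activates granule serine proteases of neutrophils and cytotoxic lymphocytes, lies at chr7:88278085-88310888 on the plus strand. The wild-type values were 15.3, 13.96, 17.98, 17.1 and 12.1 CPM. With PBS they ran from 29.6 through a median of 40.4 to 48.2 CPM, and no mouse overlapped wild type. Ctsc rose by a log2 fold change of 1.36 (SE 0.19, adjusted p = 3.19e-07). Neutrophil markers summed to at most 3.88 CPM in any kidney. Of the 3 tested, the granule protease Prtn3 rose, from 0 to 0.182 CPM in wild type to 0.399 to 1.78 CPM with PBS (log2 fold change 3.55), and it fell by 0.96 with treatment (adjusted p = 0.0336). All 8 lymphocyte markers rose between wild type and PBS, Cd8a by a log2 fold change of 3.28 and Cd4 by 2.28, and their summed level went from 5.46 to 9.75 CPM in wild type to 27.5 to 39.1 CPM with PBS. The part of lymphocytes in the rise of Ctsc was not tested.

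Markers of several other cell types rose with these 3 genes, and those of some did not. Of 12 macrophage markers, 11 rose between wild type and PBS, such as C1qa by a log2 fold change of 3.11 and Cd68 by 2.21, while Mertk fell by 0.91. Of 8 fibroblast markers 6 rose, with Col1a1 at 3.37, and their summed level went from 165 to 233 CPM in wild type to 551 to 1178 CPM with PBS. All 7 genes for MHC class II and its invariant chain rose, among them Cd74 at 2.58. All 6 collecting duct markers rose, with the water channel Aqp2 at 2.30, and their sums of 530.0 to 870 CPM in wild type stood against 1497 to 3086 CPM with PBS. All 5 tubular injury markers rose too, with Lcn2 at 6.68, and their sums were 333 to 861 CPM in wild type and 2850 to 7159 CPM with PBS. Of 5 podocyte markers 2 rose, with Wt1 at 1.08. Of 5 endothelial markers 2 fell and 0 rose, with Kdr at −1.05. Of 5 loop and distal tubule markers 4 fell and 0 rose, with Pvalb at −3.83. The part of these cells in the rise of Ctss, Ctsk and Ctsc was not tested.

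**Figure D2:**
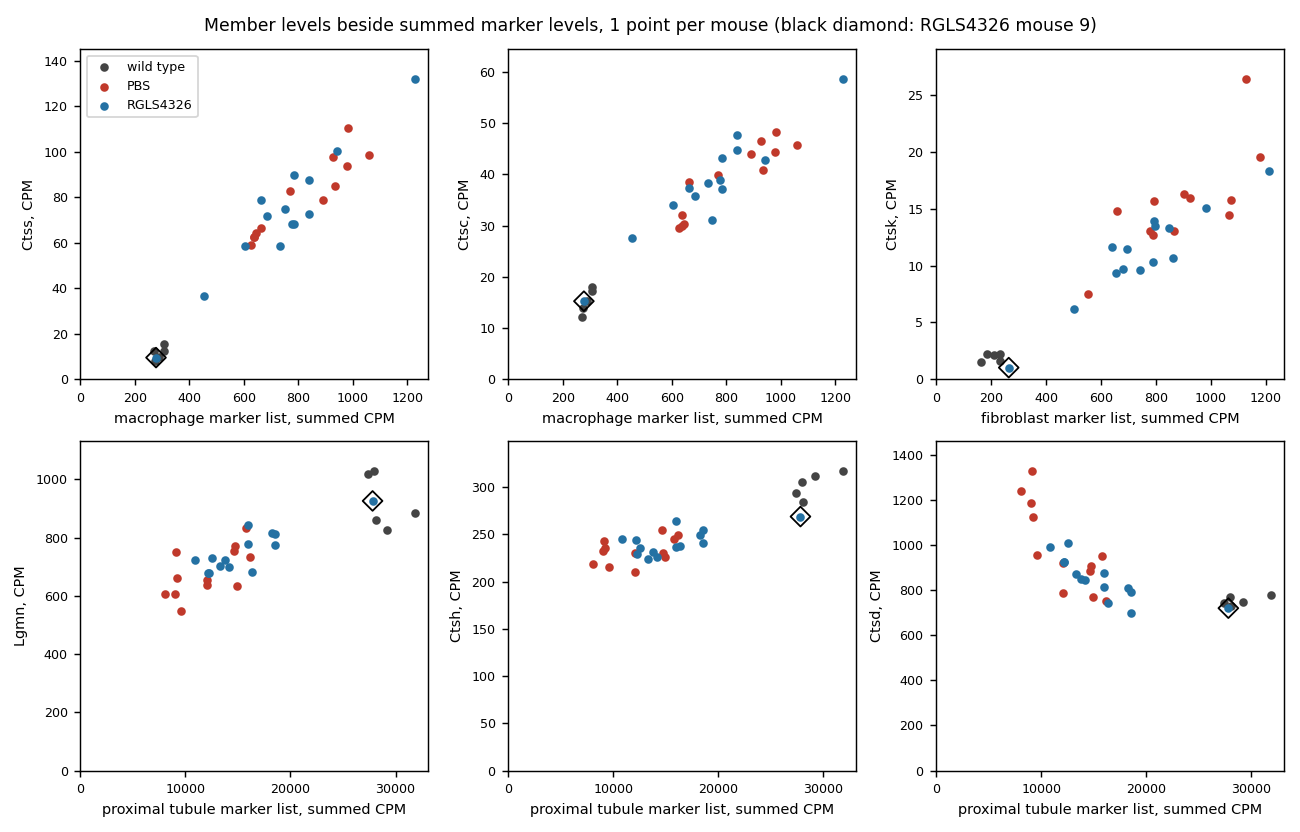
Level of a member in CPM (vertical axes from 0) against the summed CPM of a marker list (horizontal axes from 0), 1 point per mouse in the colour of its group. Ctss and Ctsc are set beside macrophage markers, Ctsk beside fibroblast markers, and Lgmn, Ctsh and Ctsd beside proximal tubule markers. RGLS4326-treated mouse 9 (black diamond) lies with or close to the wild-type mice in each panel.

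Ctsd, the main aspartic endopeptidase of the lysosome (chr7:142375911-142388038, minus strand), read 748, 777, 770, 743 and 730 CPM in wild type. PBS-treated kidneys spanned 753, 937 and 1330 CPM (lowest, median and highest), and 10 of 12 lay above the whole wild-type range. Ctsd rose by a log2 fold change of 0.39 (SE 0.11, adjusted p = 0.00236). Within the first and the second series alone it did not pass, at 0.27 and 0.38 (adjusted p = 0.336 and 0.173). Its exons share 808 bases with the same-strand gene model Gm49369, and how such reads were counted is not given in the sources used here.

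Ctsb, an endopeptidase that also acts as a dipeptidyl carboxypeptidase (chr14:63122462-63145923, plus strand), was among the evenest members. In wild type it read 626, 633, 683, 668 and 644 CPM, and with PBS 650, 722 and 824 CPM (lowest, median and highest). The groups overlapped slightly, since 10 of 12 PBS-treated mice lay above all wild-type mice. Ctsb rose by 0.15 on the log2 scale (SE 0.053, adjusted p = 0.0149).

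Ctsl, an endopeptidase of broad specificity (chr13:64359337-64370890, minus strand), read 352, 376, 400, 406 and 363 CPM in wild type and 355, 423 and 561 CPM with PBS. Its rise of 0.21 on the log2 scale (SE 0.090, adjusted p = 0.0359) was the least certain of those that passed. It lost significance when any of PBS-treated mice 3, 5, 9 or 10 or wild-type mice 1, 2 or 5 was left out, with adjusted p up to 0.0884. Within the first and the second series alone, neither Ctsb nor Ctsl passed the test (Ctsl adjusted p = 0.348 and 0.545, Ctsb adjusted p = 0.364 and 0.551).

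Ctsz, a carboxypeptidase (chr2:174427493-174439039, minus strand), read 162, 161, 175, 160 and 160 CPM in wild type. PBS-treated kidneys fell on both sides of these, from 139 through 164 to 220 CPM. The log2 fold change was 0.055 (95% interval −0.11 to 0.22, adjusted p = 0.548).

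Ctsh, an aminopeptidase (chr9:90054152-90076089, plus strand), was lower in every PBS-treated mouse than in any wild-type mouse. Wild type read 312, 317, 306, 294 and 284 CPM, and PBS-treated kidneys 210, 231 and 254 CPM (lowest, median and highest). It fell by 0.38 on the log2 scale (SE 0.046, adjusted p = 4.72e-08). Scaled by total gene counts, the difference was −0.014 (adjusted p = 0.773), so the fall holds relative to the typical gene only.

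Lgmn (chr12:102394084-102439813, minus strand) read 826, 883, 1030, 1017 and 859 CPM in wild type against 548, 657 and 834 CPM with PBS. Only the highest PBS-treated mouse reached the wild-type range. It fell by 0.44 (SE 0.082, adjusted p = 2.41e-05), and by 0.077 with total gene counts (adjusted p = 0.274). In the first series alone the fall of 0.44 did not pass (adjusted p = 0.0507). All 10 proximal tubule markers fell between wild type and PBS, such as Slc13a3 by 1.86. So did 4 of 5 loop and distal tubule markers and 2 of 5 endothelial markers. With total gene counts 9, 3 and 1 of these lists fell, and 1 loop and distal tubule and 1 endothelial marker rose. The part of these cells in the lower Ctsh and Lgmn was not tested.

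Ctsa, which protects the sialidase Neu1 and the galactosidase Glb1 in a lysosomal complex, lies at chr2:164832873-164841032 on the plus strand. Wild-type mice read 291, 300, 350, 347 and 177 CPM, and the last stood well below the rest. PBS-treated kidneys read 227, 268 and 302 CPM. With all mice the log2 fold change was −0.14 (SE 0.087, adjusted p = 0.154), and without wild-type mouse 5 it was −0.27 (adjusted p = 0.000157). With total gene counts the sign turned, to 0.23 (adjusted p = 0.0283). In the second series alone Ctsa passed as lower, at −0.38 (adjusted p = 0.0391), and in the first it read −0.17 (adjusted p = 0.217). The exons of Ctsa share 324 bases with Neurl2 and 495 with Pltp on the opposite strand, those of Ctsb 774 with Fdft1 and those of Ctsl 1742 with Gm47123. Ctsl also shares 395 exon bases with the same-strand pseudogene Gm49230, which strand cannot separate. The libraries were stranded, but the strand setting of the counting is not given in the sources used here, so reads of these stretches cannot be assigned with certainty.

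Under total gene counts the rises of Ctss, Ctsk and Ctsc were 3.18, 3.36 and 1.73, those of Ctsd, Ctsb and Ctsl were 0.76, 0.51 and 0.58, and Ctsz passed at 0.43. Thus 8 members rose and none fell under that scaling, against 6 and 2 under TMM. Of all 15185 genes, 11886 passed under that scaling, in either direction.

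**Figure D3:**
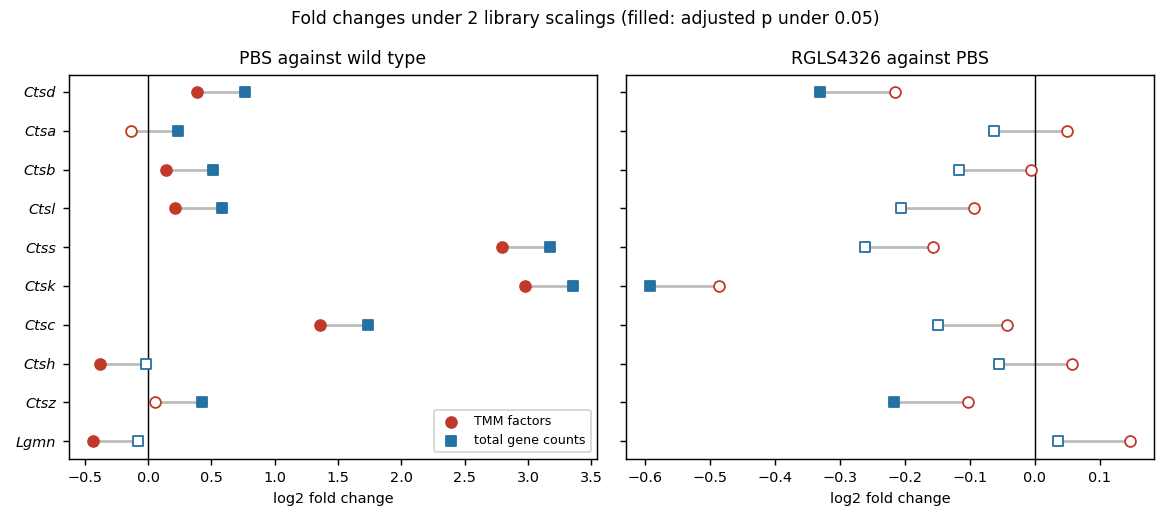
Log2 fold change of each gene (horizontal axis) for PBS against wild type (left) and RGLS4326 against PBS (right), with TMM factors (circles) and with total gene counts (squares). Filled symbols have an adjusted p under 0.05. On the left, Ctsh and Lgmn pass as lower with TMM factors alone, and Ctsa moves from −0.14 to 0.23.

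RGLS4326-treated and PBS-treated Pcy/CD1 kidneys were compared to see what treatment did to these genes in the diseased kidney. No member passed the test, and for no member were the groups apart, nor were they for any gene tested (0%). The differences nearest to the threshold were a lower Ctsd, a lower Ctsk and a higher Lgmn. None of the 10 had an adjusted p under 0.05 in edgeR's quasi-likelihood test, 3 had an unadjusted p under 0.05 and DESeq2 passed 1. Among all genes tested 15.8% passed, 9.15% as higher and 6.66% as lower, and 2.15% were called with the added fold threshold. These shares rested on single mice. The 2402 genes that passed became 618 without PBS-treated mouse 10, 1234 without treated mouse 9 and 3999 without treated mouse 2, and the 327 called became 78, 145 and 574. Leaving out PBS-treated mouse 2, 3, 5 or 9 or treated mouse 3, 6, 8, 10 or 13 also lowered both counts by over 1.5 times, and leaving out PBS-treated mouse 4 raised both by over 1.5 times, to 3864 and 559. The median log2 fold change was −0.069 over the members and −0.0043 over all genes. Without mouse 9 these were −0.028 and −0.0054, and with total gene counts −0.18 and −0.12.

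For Ctsd, RGLS4326-treated kidneys read 700, 847 and 1008 CPM (lowest, median and highest) against 753, 937 and 1330 CPM with PBS. The ranges overlapped widely, and the 3 lowest mice of both groups were treated. The log2 fold change was −0.22 (95% interval −0.38 to −0.054, adjusted p = 0.0564). DESeq2 gave an adjusted p of 0.0405, and total gene counts gave −0.33 (adjusted p = 0.0193). By series the difference was −0.027, −0.23 and −0.37, and without mouse 9 it was −0.20 (adjusted p = 0.0921). It passed in 7 of 31 fits that each left out 1 mouse, those without PBS-treated mouse 1, 4, 6, 7 or 8 or treated mouse 2 or 5.

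For Ctsk, the treated kidneys read 1.02, 11.04 and 18.3 CPM against 7.52, 15.3 and 26.4 CPM with PBS. Mice of both groups shared most of this range, with 2 treated mice below all PBS-treated mice. On the log2 scale the difference was −0.49 (95% interval −0.91 to −0.059, adjusted p = 0.0944). Without mouse 9 it was −0.39 (adjusted p = 0.0712), and without treated mouse 2, the highest of its group for Ctsk and Ctss, it was −0.56 and passed (adjusted p = 0.0457). Ctsk also passed and was called with total gene counts, at −0.59 (adjusted p = 0.0480). By series it was −0.29, −0.98 and −0.27, where the second series holds mouse 9.

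For Lgmn, treated kidneys read 677, 726 and 926 CPM against 548, 657 and 834 CPM with PBS. Of 14 treated mice, 2 lay above all PBS-treated mice. The log2 fold change was 0.15 (95% interval 0.021 to 0.27, adjusted p = 0.0881), 0.12 without mouse 9 (adjusted p = 0.153) and 0.18 without PBS-treated mouse 12, where it passed (adjusted p = 0.0386). By series it was 0.20, 0.14 and 0.098, and with total gene counts 0.036.

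Ctss differed by −0.16 between treated and PBS-treated kidneys, with a wide 95% interval of −0.57 to 0.26. Treated mice ran from 9.51 through 72.2 to 132 CPM, beyond the PBS range at both ends. Without mouse 9 the difference was −0.063. Ctsc read 15.2, 37.8 and 58.5 CPM (lowest, median and highest) with treatment, and its difference of −0.043 had an interval of −0.30 to 0.22. Without mouse 9 the Ctsc difference was 0.023 (adjusted p = 0.890). The remaining members had narrower intervals. They were −0.085 to 0.074 for Ctsb, −0.23 to 0.040 for Ctsl, −0.23 to 0.020 for Ctsz and −0.014 to 0.13 for Ctsh. With total gene counts Ctsa and Ctsh changed sign, to −0.062 and −0.055, and Ctsz passed at −0.22 (adjusted p = 0.0377). Beside these values, 4 of 10 proximal tubule markers rose with treatment, Slc13a3 by 0.54, and all 6 collecting duct markers fell, Aqp2 by 0.56, while 0 of 12 macrophage markers passed. Without mouse 9, 1 of the 10 proximal tubule markers rose, Slc13a3 read 0.38 and did not pass (adjusted p = 0.0629), all 6 collecting duct markers fell, Aqp2 by 0.50, and 1 of 12 macrophage markers rose. Their part in the member values was not tested.

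**Figure D4:**
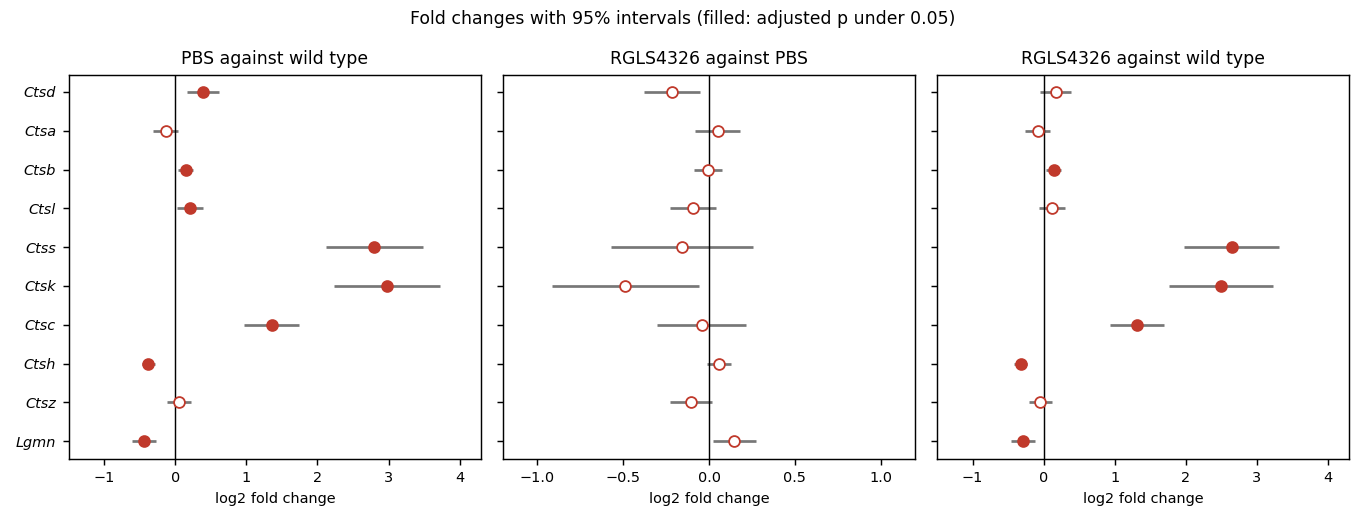
Log2 fold change (point) and 95% interval (line) of each gene in the 3 comparisons, filled where the adjusted p is under 0.05. The middle panel has its own axis range. No gene is filled for RGLS4326 against PBS, and for Ctsd, Ctsk and Lgmn the unadjusted interval lies to one side of 0.

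Treated Pcy/CD1 kidneys were also set against wild type. Both comparisons with PBS share the PBS-treated mice, and both comparisons with wild type share the wild-type mice, so they are not independent. Here 4 members rose, Ctsb, Ctsc, Ctsk and Ctss, and 2 fell, Ctsh and Lgmn, whereas 32.5% of all genes rose and 32.4% fell. The 3 called were again Ctsk (2.49, adjusted p = 1.53e-06), Ctss (2.64, adjusted p = 3.06e-07) and Ctsc (1.31, adjusted p = 1.37e-06), where 31.5% of all genes were called. Without mouse 9 they were 2.59, 2.74 and 1.38. In the second series, which holds mouse 9, no member passed the test, and of all 14852 genes tested there 61 passed. The log2 fold changes of Ctsk, Ctss and Ctsc in that series were 1.97, 1.88 and 0.91. In the first series 7744 of 14988 genes passed, the same 3 members read 2.90, 3.31 and 1.65, and Ctsl passed at 0.27 (adjusted p = 0.0427), whereas Ctsb (0.23, adjusted p = 0.0568) and Lgmn (−0.22, adjusted p = 0.0623) did not. Ctsd differed from wild type by 0.17 (95% interval −0.047 to 0.39, adjusted p = 0.161) and Ctsl by 0.12 (−0.063 to 0.30, adjusted p = 0.246). Ctsh fell by 0.32 (adjusted p = 1.22e-06) and was the one member without overlap, where 14.8% of all genes had none. For Ctsc, Ctsk and Ctss, 13 of 14 treated mice lay above all wild-type mice, and mouse 9 alone did not. The share of all genes without overlap was not taken without mouse 9. Lgmn fell by 0.29 (adjusted p = 0.00260). Without mouse 9 Ctsh read −0.33 (adjusted p = 2.35e-07), Lgmn −0.31 (adjusted p = 0.000771) and Ctsb 0.15 (adjusted p = 0.00883). Both falls were smaller with total gene counts, at 0.069 and 0.041, and did not pass. Under that scaling 6 members rose and 0 fell against wild type, with Ctsd at 0.43 (adjusted p = 0.00586) and Ctsl at 0.38 (adjusted p = 0.00537) added to those that rose. Of all 15185 genes, 10527 passed under that scaling, in either direction. Ctsd also passed with TMM when these 2 groups were fitted alone (0.18, adjusted p = 0.0396). Without wild-type mouse 5, Ctsa passed as lower here too, at −0.22 (adjusted p = 0.00169), against −0.087 with all mice. Beside the members, 11 of 12 macrophage markers rose and 1 fell against wild type. Of 8 fibroblast markers 6 rose, as did all 8 lymphocyte and all 5 tubular injury markers, and 9 of 10 proximal tubule markers fell. The part of these cells in the member values was not tested.

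Mouse 9 was the lowest of 14 treated mice for Ctsb (645 CPM), Ctsc, Ctsk and Ctss and the highest for Ctsh (269 CPM) and Lgmn (926 CPM). Its values lay inside the wild-type range for 5 members, Ctsa, Ctsb, Ctsc, Ctss and Lgmn. The same mouse had 278 CPM of summed macrophage markers.

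Across mice, deviations of log2(CPM + 1) from the group means were correlated to describe which members vary together. These values come from the same libraries and share their scaling, so they are given as descriptions. Over 31 mice the 45 pairs had a median r of 0.34, and 11 were negative. One set was Ctss, Ctsk and Ctsc, with r of 0.92 for Ctsk and Ctss, 0.89 for Ctsc and Ctss and 0.83 for Ctsc and Ctsk. Without mouse 9 these were 0.76, 0.79 and 0.64. A second set was Ctsd, Ctsl, Ctsb and Ctsz, in which Ctsd and Ctsl reached 0.92 with and without mouse 9. Ctsh and Lgmn went together at 0.67, and both ran against Ctsc, with −0.56 and −0.61.

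**Figure D5:**
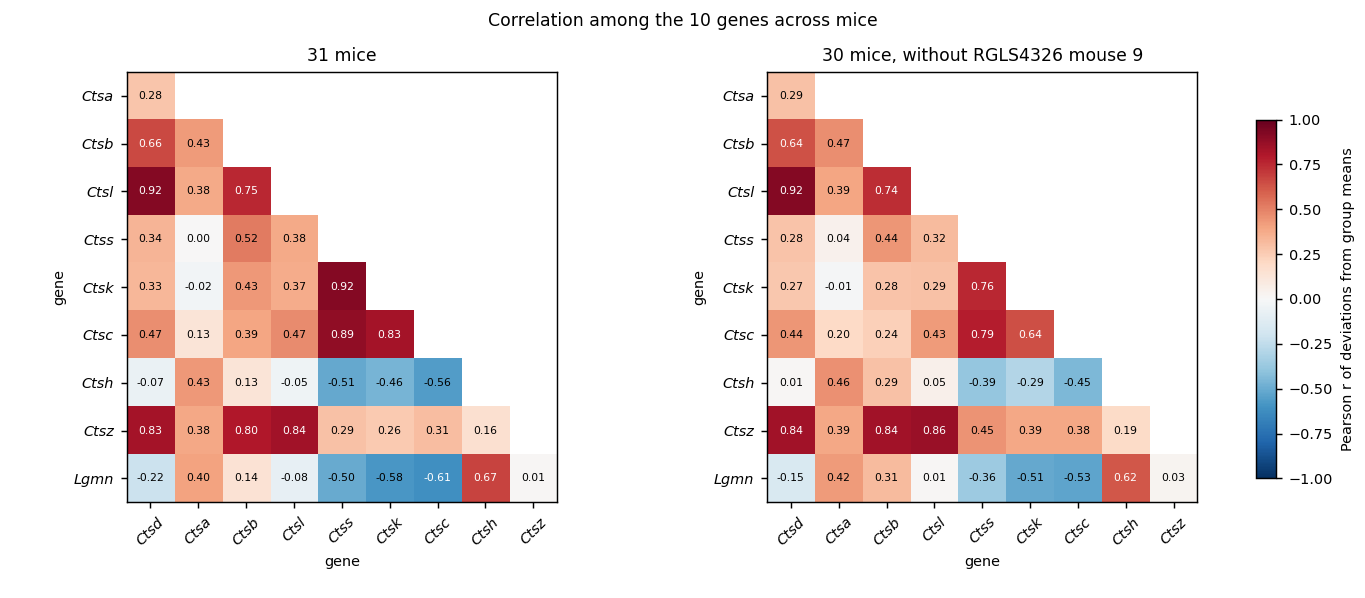
Pearson r between the members for all 31 mice (left) and for 30 mice without RGLS4326-treated mouse 9 (right), from −1 in blue to 1 in red. Ctss, Ctsk and Ctsc, and Ctsd, Ctsl, Ctsb and Ctsz, form 2 blocks of positive values, and Lgmn and Ctsh are negative against the first block.

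The genes most like each member were sought by r over the same 31 mice, among 11513 genes averaging 5 CPM or more. Nearest to Ctss were Nckap1l (0.98), a haematopoietic actin regulator, and Mpeg1 (0.97), a perforin-like gene of macrophages. Ctsc was most like Pik3cd (0.96), a leukocyte lipid kinase. Ctsk was most like Mmp2 (0.95), a gelatinase of mesenchymal cells, and that r was 0.87 without mouse 9, where Tnfsf13b, a cytokine for B cells, came first at 0.88. Ctsd was followed by Gipc1 (0.94) and Anxa4 (0.93), Ctsl by Cdk4 (0.92) and Anxa4 (0.91), and Ctsz by Capns1 (0.91). Without mouse 9 the first gene was Gpr56 for both Ctsd (0.95) and Ctsl (0.93), and Rps16 for Ctsz (0.94). Ctsb was most like Grn (0.86), which encodes the lysosomal protein progranulin. Lgmn was most like Gpx3 (0.87), a glutathione peroxidase made by proximal tubule cells and secreted to plasma. Ctsh was most like Aamp (0.90), and Ctsa was most like Tmem107 (0.80).

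Genes that act with the members were examined as lists. Their counts stand beside the shares of all genes. With TMM 37.7% rose and 36.6% fell in PBS against wild type, and 9.15% rose and 6.66% fell with treatment. With total gene counts 11886 of 15185 genes passed in PBS against wild type and 4683 with treatment, in either direction. Without mouse 9, 1234 of 15166 genes passed with treatment under TMM. Of 16 cathepsin inhibitors in the files 7 were expressed enough to test, and all 7 rose between wild type and PBS under either scaling. Serpina3g, a serpin of leukocytes that inhibits cathepsins, rose by 2.59, Ctla2b by 1.15 and Serpinb6a by 1.1. The cystatins Cstb and Cst3 rose by 0.96 and 0.36. With treatment Serpinb6a fell by 0.28 (adjusted p = 0.0456), and the other 6 did not pass. With total gene counts 3 of the 7 fell, and without mouse 9 Serpinb6a read −0.24 and did not pass (adjusted p = 0.0704).

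Among 16 other cathepsins and relatives 7 were tested. In PBS against wild type, 3 rose and 3 fell, whereas with total gene counts 6 rose and 1 fell. Ctse, an aspartic protease, rose by 2.0 and Ctsw, of cytotoxic lymphocytes, by 1.21, and Tinag, a cathepsin-like basement membrane protein, fell by 0.89. Treatment gave a rise of 0.24 in Tinag (adjusted p = 0.0423) and of 0.17 in Ctso (adjusted p = 0.0313), whereas with total gene counts 0 of 7 passed as higher and 2 as lower. Without mouse 9 Ctso passed (adjusted p = 0.0467) and Tinag did not (adjusted p = 0.0747).

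Sorting and partner proteins mostly fell, with 7 of 10 lower and 2 higher in PBS against wild type. Glb1, the galactosidase held in the Ctsa complex, fell by 1.33, Igf2r, which carries mannose 6-phosphate enzymes to the lysosome, fell by 0.71 and the sorting receptor Sort1 rose by 0.62. In treated kidneys Sort1 fell by 0.29 (adjusted p = 0.00949) and M6pr rose by 0.14 (adjusted p = 0.0372). Without mouse 9 Sort1 passed (adjusted p = 0.0136) and M6pr did not (adjusted p = 0.0622). Under total gene counts 0 of the 10 rose and 2 fell with treatment. With total gene counts 2 of these 10 fell and 3 rose in PBS against wild type.

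Other lysosomal genes gave mixed directions. Of 29 other lysosomal enzymes, 10 rose and 16 fell in PBS against wild type, with Arsb at −1.45, Lipa at −1.27 and Pla2g15 at 1.25, whereas with total gene counts 15 rose and 9 fell. The 12 genes listed for lysosomal membrane proteins include Npc2, whose protein is soluble. Of these 12, 5 rose and 5 fell (7 and 3 with total gene counts), close to the shares of all genes. Laptm5, a leukocyte protein, read 2.29, Slc11a1 1.30 and Lamp2 −0.91. For the V-ATPase, the proton pump that acidifies the lysosome, 15 genes were listed, including those of the accessory proteins Atp6ap1 and Atp6ap2. Of the 15, 11 fell and none rose, Atp6v1a by 0.79, and with total gene counts 4 fell and 6 rose. With treatment 3 of the 15 genes rose, where 9.15% of all genes did, Atp6v1d by 0.20, Atp6v1h by 0.17 and Atp6v1c1 by 0.12. Without mouse 9 only Atp6v1d of the 15 passed (adjusted p = 0.0279), and none of the 15 rose with total gene counts. Lamp2 rose by 0.38 with treatment (adjusted p = 0.0136), and without mouse 9 by 0.36 (adjusted p = 0.0219). In all, 2 of the 12 membrane protein genes rose and 0 fell with treatment, and with total gene counts 1 rose and 1 fell. Of the 29 other enzymes 3 rose and 1 fell with treatment. None of the 29 passed without mouse 9, and with total gene counts 0 rose and 10 fell. Among 4 transcription factors of the TFEB family, Tfe3 rose by 0.28 and Tfec fell by 0.37 in PBS against wild type, and none passed with treatment. With total gene counts 3 of the 4 rose and 0 fell in PBS against wild type, and 1 fell with treatment.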

How the data were processed

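RNA-seq counts of 31 kidneys were analysed. The authors trimmed reads with Trim Galore, mapped them with STAR to GRCm38 (mm10), counted uniquely mapped reads per gene with HTSeq 0.6.1 and deposited raw counts, with no normalization; the gene annotation and strand setting are not given in the sources used here. From the deposited counts, genes passing filterByExpr were kept, libraries were scaled by TMM, and edgeR 4.0.16 (R 4.3.3) fitted 1 quasi-likelihood model with a coefficient per group. Thresholds were a Benjamini-Hochberg adjusted p under 0.05 over all 15185 genes and, for a call, a log2 fold change beyond 0.5 in size. Standard errors and 95% intervals were derived from the F statistic and are approximate. All rows that name no gene were left out. Those for reads on no gene or of ambiguous gene held 10.8 to 12.9% of their sum with the gene counts. The fit was tested on simulated counts. Python 3.11.15 read sequences. No 2 libraries agreed within sampling noise. The replicates are separately labelled mice. The members and lists were chosen with earlier results of these data known; within a list, the 3 genes that passed with the largest changes and a mean of at least 1 CPM were named, and further ones after their values were seen. Counting depth limits Ctsk most. Alternatives covered scaling, DESeq2 1.42.0, the filter, the mice in the model, library series, a replicate block and leaving out each mouse. The lists without treated mouse 9 were added after seeing the data.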

Additional observations from a re-analysis of the deposited data

Results flagged for a closer look

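Among the 10 members checked in the 5 wild-type mice, 1 value stood apart from its group. Ctsz in wild-type mouse 3 read 174.8 CPM, while the other wild-type mice read 160 to 162 CPM, a gap that is wide for the range of the group. Chance sets about 1 in 20 such groups apart. The groups of 12 and 14 mice were not checked in this way.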

How the results depend on the processing

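Depth limits Ctsk most, at 26 to 38 reads in each wild-type kidney. The rises of Ctss, Ctsk and Ctsc over wild type passed in all 31 fits that left out 1 mouse. Total gene counts in place of TMM, chosen after seeing the data, called 6 members for PBS against wild type, and 1 member for treatment with 3 passing the test. Of all 15185 genes, 7356 were then called for PBS against wild type, and 688 were called and 4683 passed for treatment. Under that scaling Ctsa reversed to 0.23, −0.062 and 0.17 (PBS against wild type, treatment against PBS, treatment against wild type), Ctsh to −0.055 for treatment and Ctsz to 0.21 for treatment against wild type. All genes shifted by construction of that scaling, to a median of −0.12 for treatment. DESeq2 passed 1 member for treatment, and 3203 of 15182 genes in all. Series 1 alone passed 4 members for PBS against wild type, where 6378 of 15026 genes passed in all. Series 2 alone called 0 and passed 0 for treatment against wild type, where 61 genes passed in all. The cause was not tested. In series 1, treatment gave reversed signs for Ctsb (0.057), Ctsc (0.16), Ctsl (0.067), Ctss (0.11) and Ctsz (0.0040), and Ctsz was 0.028 for treatment against wild type. None of these passed the test. Leaving out single mice, the members passing for treatment ranged from 0 to 2 and those called from 0 to 1, with −0.018 to 0.014 for Ctsb and −0.10 to 0.023 for Ctsc. Both crossed 0, the cause was not tested, and the one called was Ctsk without treated mouse 2. Same-numbered mice are different animals. Their deviations had a mean r of −0.085 over 12 numbers, 4 were over 0.1 and 2 of 12 matched their own number best, so the numbers pair nothing. A replicate block passed 8 and called 3 members for PBS against wild type, 0 and 0 for treatment, and 6 and 3 for treatment against wild type. Of all 15185 genes it passed 11059 and called 6831 for PBS against wild type, and 9570 and 5266 for treatment against wild type. For treatment it passed 303 and called 43 genes in all, against 327 called without it.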

Other observations

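Together the 10 genes held 0.293% of all gene counts in wild type (SD 0.0193, n = 5), 0.393% with PBS (SD 0.0524, n = 12) and 0.353% with RGLS4326 (SD 0.0346, n = 14), and 0.300% in treated mouse 9. With TMM factors their summed level was 3495 CPM in wild type (SD 213), 3629 CPM with PBS (SD 352) and 3528 CPM with RGLS4326 (SD 189). Spread between mice differed between members. With PBS the coefficient of variation was 29.1% for Ctsk and 21.6% for Ctss, against 5.97% for Ctsh and 6.78% for Ctsb. With RGLS4326 it was 39.6% for Ctss and 37.4% for Ctsk, both with mouse 9 included. Ctsd varied by 2.59% in wild type, 19.5% with PBS and 11.03% with RGLS4326. The cathepsin genes Ctsj, Ctsq, Ctsr, Cts3, Cts6, Cts7 and Cts8, of the cluster expressed in placenta, had no read in any of the 31 kidneys.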
